A study of Mus musculus with 4 samples.

Results

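Type IV collagen is the network-forming collagen of basement membranes, and its chains are encoded by the 6 genes Col4a1 to Col4a6. The chains were followed here through every probe set (a group of short DNA probes read together as 1 value) that the platform annotation assigns to exactly 1 of these genes. There were 12 such probe sets among 45037 on the array without controls, for 6 of the 18193 genes that have such a probe set: 2 each for Col4a1, Col4a3, Col4a5 and Col4a6, 3 for Col4a4 and 1 for Col4a2. They were read on 4 one-colour arrays, each carrying total RNA of mouse cells labelled as mesangial cells, the contractile cells between the capillaries of the kidney glomerulus. In 2 arrays the cells had been kept in low glucose, in a study that the labels also tie to high glucose and glucosamine. In the other 2 they had received TGFBeta1 (transforming growth factor beta 1, TGF-beta1 below), a cytokine known for driving matrix deposition in the glomerulus. The labels give no strain, age or origin of the cells, and no dose, time or glucose level for TGF-beta1. An effect of glucose and one of TGF-beta1 cannot be told apart. Separate cultures within a group are not stated, so every p-value reflects no more than the scatter among 4 arrays, possibly all of it technical, and the small number of arrays limits the precision.

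As background, the chains assemble inside the cell into heterotrimers, which are joined outside the cell into sheets. The a1/a2 network is found in nearly all basement membranes, including the matrix that mesangial cells make. The a3/a4/a5 network is the mature collagen of the glomerular capillary wall, made by podocytes, and of some tubule basement membranes, and its loss causes Alport syndrome. The a5 chain also joins a6 in the network of Bowman's capsule and of some tubules. The genes lie in head-to-head pairs: Col4a1 beside Col4a2, Col4a3 beside Col4a4 and Col4a5 beside Col4a6.

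The sequence at the starts of the 2 gene pairs that hold the called probe sets is shown to set these results on the genome. Starts were those of the promoter windows in RefSeq (GRCm38.p6), except for Col4a3, where the edge of the annotated gene was used. The Col4a3 start lay 72 bases from the Col4a4 start, and the Col4a6 and Col4a5 starts lay 1343 bases apart. The annotated genes Col4a5 and Col4a6 reach past these starts, so their edges lie closer together. The transcripts of Col4a1 and Col4a2 overlapped by 22 bases at their starts. The promoter table matched 5 of the 6 genes, with Col4a3 as the gene without an entry. Each stretch is printed 5′ to 3′ on the strand of the gene named last, with at most 30 bases of a transcript at an edge. They are chr1:82586820-82586950 on the minus strand (Col4a3 and Col4a4), chrX:141475169-141475399 on the plus strand (Col4a5) and chrX:141474066-141474326 on the minus strand (Col4a6).
Col4a3 and Col4a4: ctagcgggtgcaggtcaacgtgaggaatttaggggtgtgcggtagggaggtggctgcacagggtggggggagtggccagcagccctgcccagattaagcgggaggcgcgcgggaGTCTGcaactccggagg
Col4a5: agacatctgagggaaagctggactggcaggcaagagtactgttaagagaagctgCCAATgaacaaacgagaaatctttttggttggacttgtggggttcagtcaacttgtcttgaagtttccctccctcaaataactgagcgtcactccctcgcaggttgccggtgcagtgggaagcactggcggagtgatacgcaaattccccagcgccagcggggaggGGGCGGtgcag
Col4a6: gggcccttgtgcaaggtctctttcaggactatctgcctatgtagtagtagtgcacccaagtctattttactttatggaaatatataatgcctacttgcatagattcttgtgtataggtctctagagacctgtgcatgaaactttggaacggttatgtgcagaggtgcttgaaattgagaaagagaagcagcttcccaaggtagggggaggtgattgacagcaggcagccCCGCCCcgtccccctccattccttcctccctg
Capitals mark matches, on either strand, to the SMAD box (CAGAC), the GC box (GGGCGG), the CCAAT box and the TATA box (TATAAA). The motifs do not overlap in these stretches. The stretch of Col4a3 and Col4a4 held 1 SMAD box, which lay 13 bases past the Col4a4 start and not between the 2 starts. Those of Col4a5 and Col4a6 held 1 GC box each, and that of Col4a5 also held 1 CCAAT box. Over 300 bases around the start, 49.6% of 32817 promoter windows held a SMAD box, 35.6% a GC box, 37.4% a CCAAT box and 13.6% a TATA box. Among the 5 member windows of that length, 2 held a SMAD box, those of Col4a2 and Col4a4, 4 held a GC box and 0 held a TATA box. These matches describe the letters in the windows only.

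The 4 arrays fell into 2 pairs, each with 1 low glucose and 1 TGF-beta1 array. Hybridisation spike-ins, control RNAs that hold nothing of the cells, set low glucose replicate 1 beside TGF-beta1 replicate 2 (array pair 1, mean absolute log2 difference 0.0449 against 0.855 to the other TGF-beta1 array) and low glucose replicate 2 beside TGF-beta1 replicate 1 (array pair 2, 0.0847 against 0.949). The array pair was therefore a term (a block) in the test, and the difference within each pair stands beside each result. Of 27022 probe sets above a filter on dim values, 73.8% had both arrays of 1 pair above both of the other, and 4 of the 11 type IV collagen probe sets above that filter did. The ratio of 3′ to 5′ signal, a sign of RNA and labelling quality, was 3.92 and 4.30 in pair 1 and 2.72 and 2.78 in pair 2 for the transferrin receptor. For beta-actin it was 1.18 and 1.18 against 1.51 and 1.32, the higher values now in pair 2. Its part in any result was not tested.

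The cells were set against markers of the cell types they could hold. Of 9 mesangial markers measured, 7 were above the filter and 1, Tagln, was above the 75th percentile of all probe sets. Itga8, which marks mesangial cells, lay at the filter with a mean normalised log2 value of 6.86 against 6.85 for the filter, and Gata3 and Thy1 lay below it. Of 10 tubule epithelium markers, 8 were above the filter and 5 above the 75th percentile: Krt18, Cdh16, Aqp1, Pax8 and Lrp2, with mean log2 values of 11.7, 10.8, 10.7, 9.54 and 8.88. The tubule markers Umod and Krt8 were dim at 7.06 and 7.17, and Cdh1 and Slc12a1 lay below the filter at 6.47 and 6.45. The mesangial markers summed to 904.3 to 1058 in low glucose arrays and 1237 to 1314 in TGF-beta1 arrays. That gap rests on Tagln, which read 207.0 and 238.9 in low glucose replicates 1 and 2 and 488.7 and 405.3 in TGF-beta1 replicates 1 and 2. Without Tagln the sums of the groups overlap. The tubule markers summed to 7905 to 8807 in low glucose and 8323 to 8327 in TGF-beta1. Levels of different probe sets cannot be set against each other, so these values do not settle which cells were present, and the label of mesangial cells is kept as given. In TGF-beta1 the mesangial markers Tagln and Acta2 rose by 0.88 and 0.32 on the log2 scale. The other mesangial markers above the filter were not called: Itga8, Cspg4 and Pdgfrb each at 0.05, Igfbp5 at -0.01 and Des at -0.10. The tubule keratins Krt18 and Krt8 rose by 0.54 and 0.40, and the tubule markers Cdh16, Aqp1 and Lrp2 fell by 0.31, 0.67 and 0.29. Pax8, Umod and Epcam, at -0.14, -0.12 and 0.06, were not called (all with the test described below). With TGF-beta1 replicate 1 left out Acta2 was at 0.18, and with its replicate 2 left out Cdh16 was at -0.20. Podocytes make the a3/a4/a5 network in the glomerulus. Of 7 podocyte markers 4 were above the filter, Podxl being brightest at 8.52, while Wt1, Ptpro and Cdkn1c lay below it. Their summed intensity was 895.2 to 1034 in low glucose and 793.3 to 1036 in TGF-beta1. Podxl rose by 0.23, while Plce1 fell by 0.37 and Synpo fell by 0.58. Nphs1, with a mean log2 value of 7.55, was at 0.16 and was not called. The value of Podxl rests on single arrays: it was at 0.007 when TGF-beta1 replicate 2 was dropped and 0.018 for low glucose replicate 2, against 0.455 for TGF-beta1 replicate 1 and 0.452 for low glucose replicate 1. In the same order Plce1 was at -0.129, -0.135, -0.607 and -0.615, and Synpo was at -0.36 for the first of these. No glomerular endothelium marker of 8 measured was above the 75th percentile, and 2 of 6 macrophage markers were, Csf1r and Cd14. Adgre1, Cd68 and Itgam were dim at 7.12, 7.10 and 6.94, and Ptprc lay below the filter at 6.22. Csf1r fell by 0.38 in TGF-beta1, and was at -0.21 when TGF-beta1 replicate 1 was dropped and -0.235 for low glucose replicate 1. No other macrophage marker was called, with Cd68 at 0.14, Adgre1 at 0.06, Cd14 at -0.02 and Itgam at -0.10. None of these markers was at 0 on any array. The part of any other cell type in the results below was not tested, and in RNA of whole cultures fewer cells of a type cannot be told apart from less RNA per cell.

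**Figure D1:**
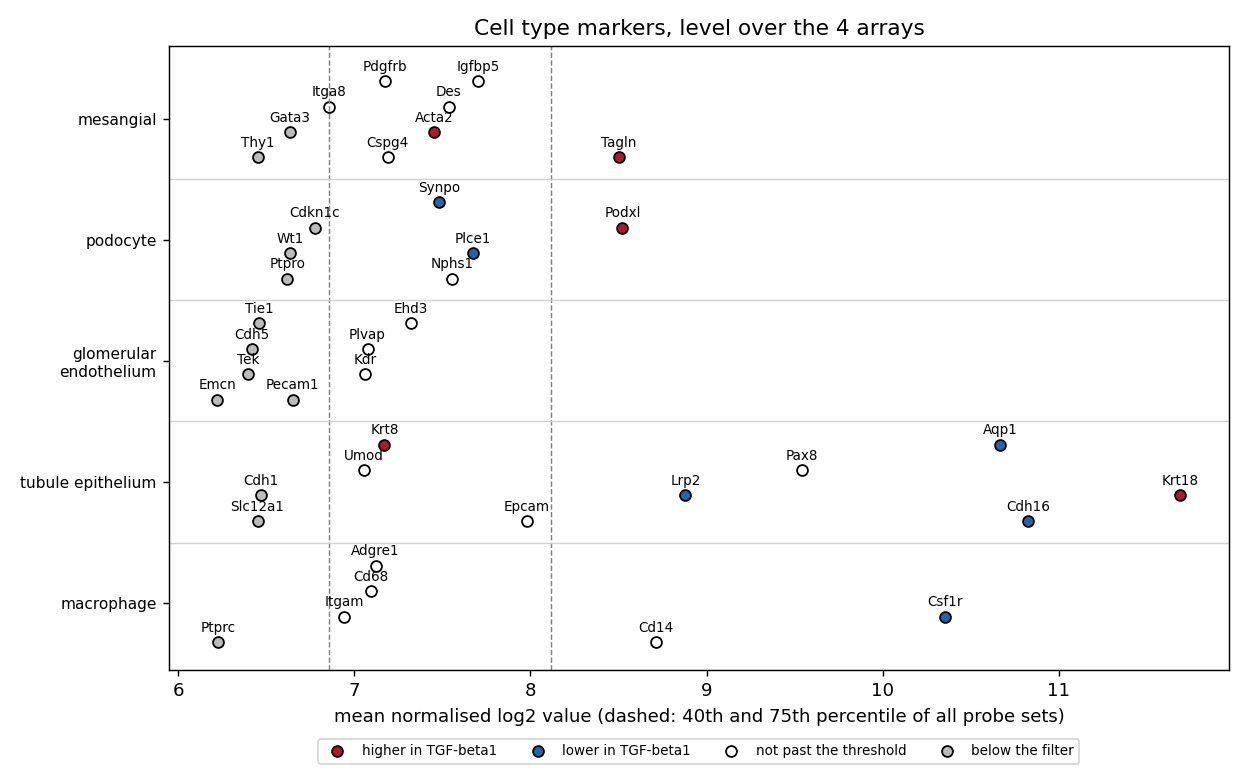
Mean normalised log2 value over the 4 arrays (horizontal axis) of each marker gene, in 5 cell type lists (rows); point colour gives the call in TGF-beta1 against low glucose, and the dashed lines are the 40th and 75th percentiles of all probe sets. Tubule epithelium has 5 of 10 markers right of the second line, from Lrp2 at 8.88 to Krt18 at 11.7, while mesangial has Tagln alone there.

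TGF-beta1 and low glucose differed in opposite directions in 2 of the head-to-head pairs and by little in the third. Probe sets of Col4a3 and Col4a4 were higher in TGF-beta1, by up to 0.58 on the log2 scale (1.496-fold), those of Col4a5 and Col4a6 were lower, by up to 0.31 (1.24-fold), and those of Col4a1 and Col4a2 lay between -0.07 and 0.04. Here a probe set rose or fell if its adjusted p was under 0.05 in limma with the array pair as a block, after a pseudocount of 46.88 and quantile normalisation, over 27022 probe sets. Of the 12 probe sets 1 lay below the filter, 4 rose, 2 fell and 5 did not pass. Over all probe sets tested, 6.94% rose and 8.92% fell. The median difference of the 11 tested was 0.04, against 0.003 over all probe sets tested. In normalised value all 12 had the same sign within both array pairs. In 5 of the 11 both TGF-beta1 arrays lay above both low glucose arrays in normalised value, and in 2 below, where the shares over all tested were 9.54% and 10.2%.

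These calls rest on the block. Without it limma called 0 of the 11 (smallest adjusted p = 1, and 1 with an unadjusted p under 0.05) and 0% of all probe sets, with 443 of 27022 at an unadjusted p under 0.05. With the block, 1 residual degree of freedom is left per probe set, and limma takes each standard error from probe sets of like brightness. With a prior of 2.68 degrees of freedom, taken from the unblocked fit, the blocked limma fit also called 0 of the 11, 6 of them with an unadjusted p under 0.05. The differences themselves are the same in all 3 fits.

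**Figure D2:**
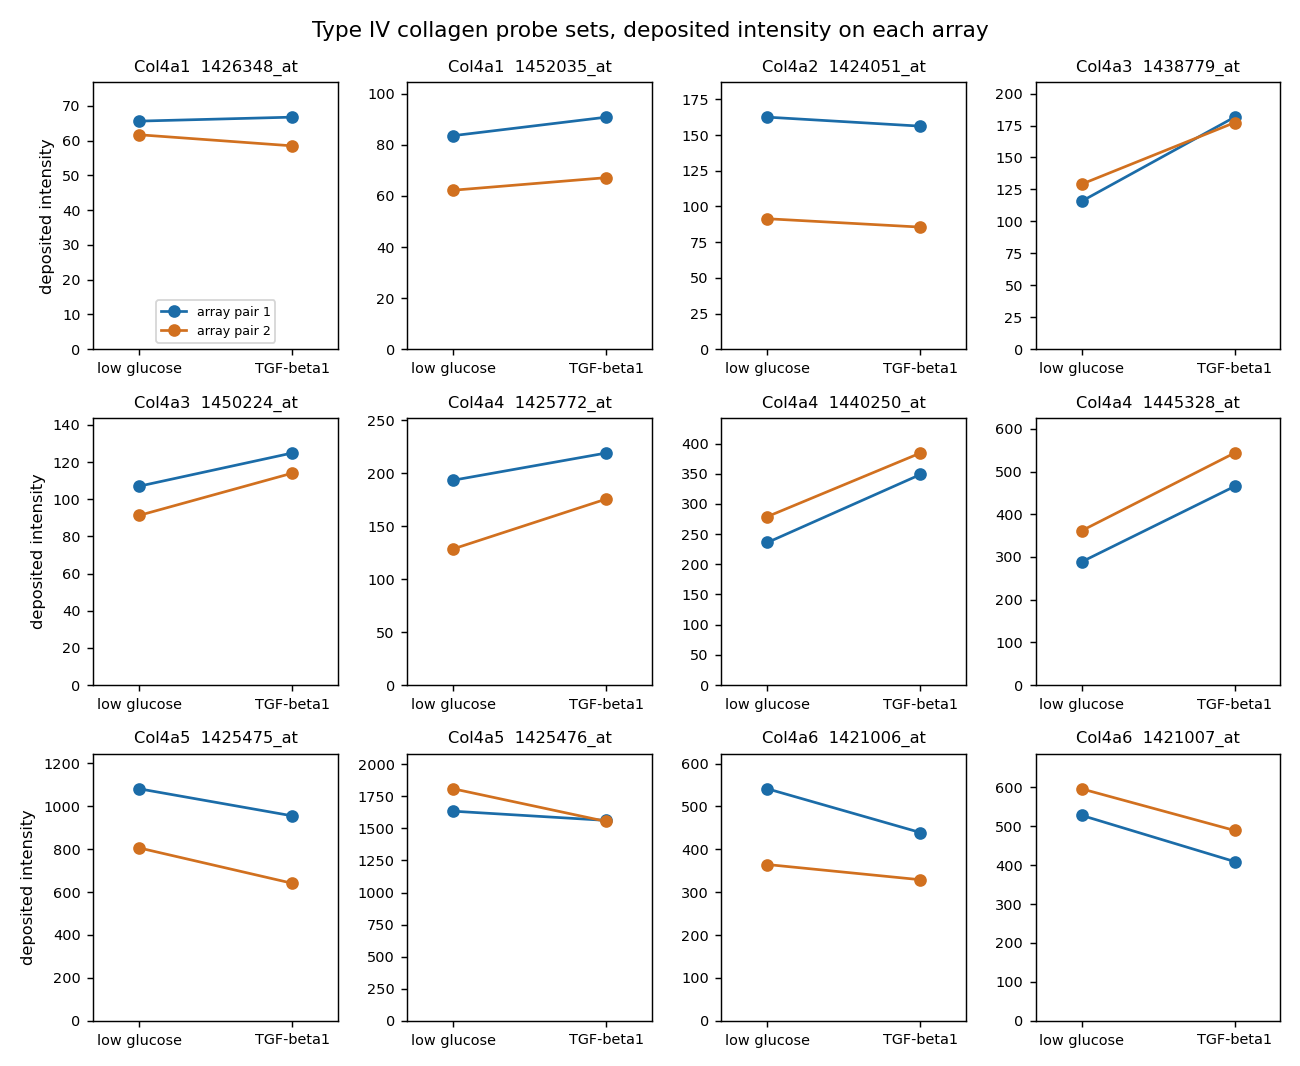
Deposited intensity (vertical axis, linear, from 0) of each of the 12 type IV collagen probe sets on the low glucose and TGF-beta1 arrays; points are single arrays and lines join the arrays of a pair. Both lines rise in all 5 panels of Col4a3 and Col4a4 and fall in all 4 panels of Col4a5 and Col4a6, while in the second Col4a1 panel and the Col4a2 panel the pairs lie further apart than the groups.

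Col4a1 encodes the chain that occurs in double dose in the a1/a2 network, and its probe sets were dim. Probe set 1452035_at read 83.6 and 62.3 in low glucose replicates 1 and 2 and 67.2 and 90.9 in TGF-beta1 replicates 1 and 2. The arrays of pair 1 were the higher ones in each group, and the groups overlapped. Its difference was 0.04 ± 0.078 (SE, n = 2 arrays per group; 0.05 and 0.04 within pairs 1 and 2), with a 95% interval from -0.11 to 0.20 (adjusted p = 0.782, limma with the block), and it ran from 0.0003 to 0.09 with 1 array left out. Probe set 1426348_at, designed from the same sequence record, lay below the filter at 65.6, 61.7, 58.5 and 66.7 in the same order, and differed by -0.04 (-0.01 and -0.07 within pairs). Without the filter its 95% interval ran from -0.18 to 0.10 (adjusted p = 0.852, limma with the block).

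Col4a2, the partner chain of that network, had 1 probe set, 1424051_at. It read 162.5 and 91.4 in low glucose replicates 1 and 2 and 85.5 and 156.2 in TGF-beta1 replicates 1 and 2. Both arrays of pair 1 were above both of pair 2, by 0.41 on the log2 scale, and the groups overlapped. Its difference between groups was -0.07 ± 0.066 (SE, n = 2; -0.05 and -0.09 within pairs), with an interval from -0.20 to 0.05 (adjusted p = 0.504, limma with the block). Its sign turned when low glucose replicate 1 was left out (0.12), and when TGF-beta1 replicate 1 was (0.14). Neither gene of the a1/a2 network passed the test. Their intervals hold only with the block: without it the SE of Col4a2 was 0.23, and leaving out TGF-beta1 replicate 2 gave -0.29 and low glucose replicate 2 gave -0.27. The log2 scale with a pseudocount understates changes of dim probe sets.

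Col4a3 encodes the chain whose globular end is the target of antibodies in Goodpasture disease. Its probe set 1438779_at read 115.7 and 129.1 in low glucose replicates 1 and 2 and 177.3 and 181.6 in TGF-beta1 replicates 1 and 2. Both TGF-beta1 arrays were above both low glucose arrays. It rose by 0.41 ± 0.064 (SE, n = 2; 0.50 and 0.31 within pairs; adjusted p = 1.11e-08, limma with the block), and was at 0.26 without low glucose replicate 1. The other probe set, 1450224_at, read 107.0 and 91.3 on the low glucose arrays and 114.0 and 124.9 on the TGF-beta1 arrays. The groups did not overlap there either, but the difference of 0.16 ± 0.067 (0.13 and 0.19 within pairs) did not pass (adjusted p = 0.0900, limma with the block). It passed with the authors' scaling of the arrays, at 0.19 and an adjusted p of 0.0331, and was smaller, at 0.10, when TGF-beta1 replicate 1 was left out.

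Col4a4, which pairs with Col4a3 in the same trimer, rose on all 3 of its probe sets. Probe set 1445328_at read 288.4 and 361.3 in low glucose replicates 1 and 2 and 543.7 and 465.4 in TGF-beta1 replicates 1 and 2. It rose by 0.58 ± 0.078 (SE, n = 2; 0.64 and 0.52 within pairs; adjusted p = 5.9e-12, limma with the block). Of the 27022 probe sets tested, 186 had a larger rise. Probe set 1440250_at went from 236.1 and 279.1 to 384.4 and 348.8, in the same order. It rose by 0.46 ± 0.073 (0.52 and 0.39 within pairs; adjusted p = 1.93e-08, limma with the block). In both of these the TGF-beta1 arrays were all above the low glucose arrays. Probe set 1425772_at read 193.3 and 128.4 on the low glucose arrays and 175.5 and 218.9 on the TGF-beta1 arrays. Its deposited values overlapped between groups and its normalised values did not, the closest being 7.84 in low glucose replicate 1 and 7.87 in TGF-beta1 replicate 1. It rose by 0.23 ± 0.064 (0.16 and 0.31 within pairs; adjusted p = 0.00394, limma with the block), and ranged from 0.38, with low glucose replicate 1 left out, to 0.09, with low glucose replicate 2 left out. The 3 probe sets of Col4a4 thus gave rises between 0.23 and 0.58. The position of each probe set in the transcript was not used here.

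Col4a5 encodes the chain shared by the a3/a4/a5 and a5/a6 networks. Its probe set 1425476_at, brighter than at least 96.46% of probe sets on every array, read 1633.7 and 1808.1 in low glucose replicates 1 and 2 and 1553.4 and 1561.9 in TGF-beta1 replicates 1 and 2. Both TGF-beta1 arrays were below both low glucose arrays. The difference of -0.14 ± 0.075 (SE, n = 2; -0.05 and -0.23 within pairs) did not pass (adjusted p = 0.202, limma with the block; interval -0.29 to 0.005). It was at -0.03 with low glucose replicate 2 left out and at -0.26 with low glucose replicate 1 left out. The other probe set, 1425475_at, read 1081.0 and 805.6 on the low glucose arrays and 640.9 and 955.0 on the TGF-beta1 arrays, so the groups overlapped and the arrays of pair 1 were the higher in each. It fell by 0.24 ± 0.082 (-0.18 and -0.31 within pairs; adjusted p = 0.0233, limma with the block). Leaving out TGF-beta1 replicate 1 gave 0.01 and leaving out TGF-beta1 replicate 2 gave -0.50. Leaving out low glucose replicate 1 gave -0.06, and low glucose replicate 2 gave -0.43.

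Col4a6, whose chain occurs in the a5/a6 network alone, was lower in TGF-beta1 on both probe sets. Probe set 1421007_at read 527.8 and 595.9 in low glucose replicates 1 and 2 and 489.0 and 409.1 in TGF-beta1 replicates 1 and 2. Both TGF-beta1 arrays were below both low glucose arrays. It fell by 0.31 ± 0.080 (SE, n = 2; -0.34 and -0.28 within pairs; adjusted p = 0.00183, limma with the block), and was at -0.18 without TGF-beta1 replicate 2. Probe set 1421006_at read 541.1 and 364.5 on the low glucose arrays and 329.0 and 439.0 on the TGF-beta1 arrays, with overlapping groups. Its difference of -0.20 ± 0.078 (-0.27 and -0.13 within pairs) did not pass (adjusted p = 0.0618, limma with the block). It passed with arrays centred on their medians (adjusted p = 0.0263), with a filter at the 60th percentile (0.0460) and with no intensity trend (0.0455), and turned to 0.04 without low glucose replicate 1. Leaving out TGF-beta1 replicate 1 gave -0.03, TGF-beta1 replicate 2 -0.37 and low glucose replicate 2 -0.44.

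**Figure D3:**
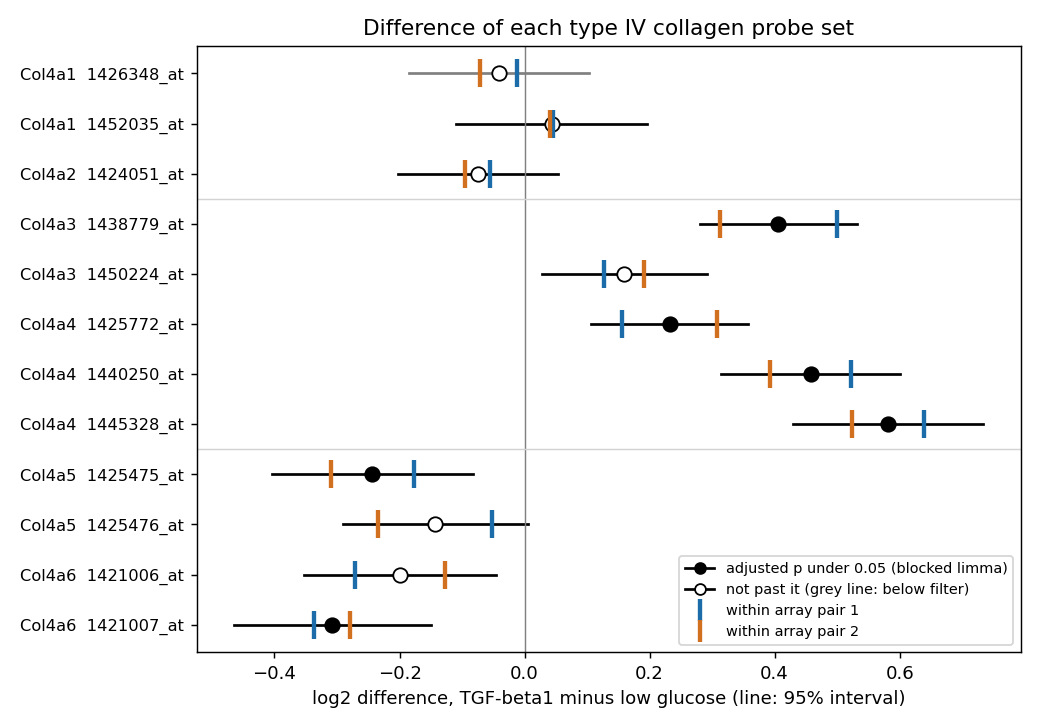
Log2 difference of each type IV collagen probe set, TGF-beta1 minus low glucose (horizontal axis), with its unadjusted 95% interval from limma with the block (line; 1426348_at, below the filter, from the fit without a filter) and the differences within array pair 1 and array pair 2 (coloured ticks); filled points passed an adjusted p of 0.05. The 5 probe sets of Col4a3 and Col4a4 lie between 0.16 and 0.58, the 4 of Col4a5 and Col4a6 between -0.31 and -0.14, and the 3 of Col4a1 and Col4a2 near 0.

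By network, the a1/a2 probe sets (3) had a median difference of -0.04 (-0.01 and -0.07 within pairs 1 and 2), with 0 called of 2 tested. The a3/a4/a5 probe sets (7) had a median of 0.23 (0.16 and 0.31), with 4 that rose, 1 that fell and 2 that did not pass. Of those that rose, 3 were of Col4a4 and 1 of Col4a3, so the count is of probe sets and not of genes. Within that network the direction divided by chain: the 5 probe sets of Col4a3 and Col4a4 had a median of 0.41 (0.50 and 0.31), and the only call downward was that of Col4a5. The a5/a6 probe sets (4) had a median of -0.22 (-0.22 and -0.26), with 0 that rose, 2 that fell and 2 that did not pass. The median of Col4a3 and Col4a4 exceeded that of Col4a5 and Col4a6 by 0.63 (0.72 and 0.57 within the pairs) and that of Col4a1 and Col4a2 by 0.45 (0.51 and 0.38). The median of Col4a5 and Col4a6 was 0.18 below that of Col4a1 and Col4a2 (-0.21 and -0.19). These gaps between networks were described within each pair and not tested.

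Probe sets of Col4a1, Col4a4, Col4a5 and Col4a6 differed in mean between the array pairs in opposite directions within the same gene. For Col4a5, 1425475_at was 0.43 higher in pair 1 than in pair 2 on the log2 scale, and 1425476_at was at -0.13. For Col4a6 the values were 0.41 on 1421006_at and -0.22 on 1421007_at. For Col4a4 they were 0.20 on 1425772_at against -0.23 on 1440250_at and -0.28 on 1445328_at. For Col4a1 they were 0.08 on 1452035_at and -0.08 on 1426348_at, which lay below the filter. The arrays of the 2 pairs overlapped on every Col4a4 probe set, on 1425476_at and on 1421007_at, and not on the others named here. The probe sets of Col4a5 share a sequence record, as do those of Col4a6 and those of Col4a1, so they are no independent samples of their genes. Their difference between groups had the same sign in each of these genes except Col4a1. The 3′ to 5′ ratios given above also differed between the pairs, in directions that varied by transcript, and little for Gapdh. Their part in these values was not tested.

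**Figure D4:**
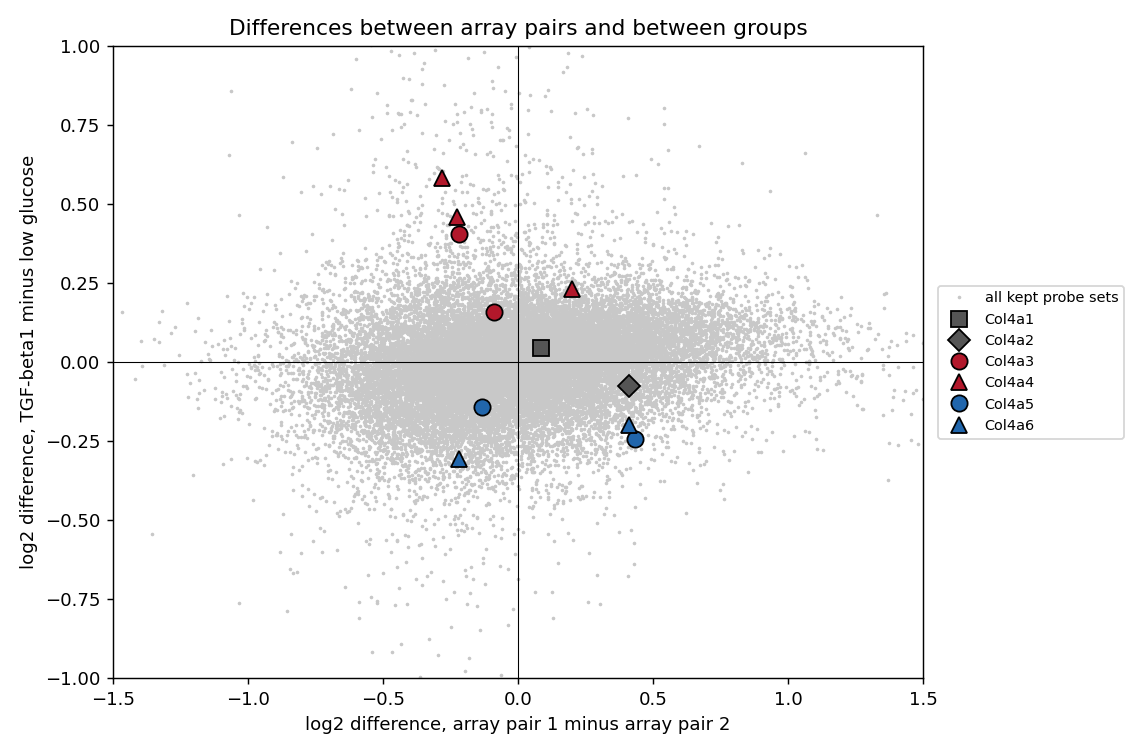
Log2 difference between array pair 1 and array pair 2 (horizontal axis) and between TGF-beta1 and low glucose (vertical axis) for all 27022 probe sets above the filter (grey; 63 lie outside the axes) and the 11 of type IV collagen (coloured). Probe sets of Col4a3 and Col4a4 lie in the upper part and those of Col4a5 and Col4a6 in the lower part, and those of Col4a4, Col4a5 and Col4a6 fall on both sides of the vertical zero line.

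The genes nearest to each member were found by Euclidean distance between normalised log2 values centred on their mean, over the 4 arrays, with 1 probe set per gene and 13564 candidates. Nearest to Col4a3 (1438779_at) were Frmd4a (distance 0.035) and St6gal1 (0.0433), which differed by 0.41 and 0.38 between groups. Nearest to Col4a4 (1445328_at) were Tmcc3 (0.0147) and Rnf19b (0.0364), at 0.58 and 0.60. Col4a5 (1425476_at) had Adam9 (0.0277) and Mtx2 (0.0293), and Col4a6 (1421007_at) had Dipk1b (0.0137) and Habp4 (0.0221). Col4a1 had Mb (0.00762) and Rplp2 (0.00909), and Col4a2 had Kmt2b (0.011) and Elac1 (0.0186). The median distance to all candidates ran from 0.318 for Col4a1 to 0.718 for Col4a4. With so few arrays the distance is a description, and no other chain of type IV collagen was among the nearest 2 of any member.

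The genes that act on type IV collagen or lie beside it were read from 1 probe set per gene, of which 7.53% rose and 9.96% fell among 13565 tested. Their median differences stand against -0.0001 over all of these. Among genes for folding, modifying and secreting collagen 2 of 15 tested rose, 0 fell and 13 were not called (median 0.01). Colgalt1, which adds galactose to collagen hydroxylysine, rose by 0.30 ± 0.078 (SE, n = 2 here and below; 0.30 and 0.29 within pairs) and Plod2, a lysyl hydroxylase, by 0.21 ± 0.068 (0.21 and 0.21). Serpinh1, the collagen chaperone, was at 0.15 ± 0.068 without passing. Among cross-linkers and basement membrane partners 1 of 14 tested rose, 4 fell and 9 were not called (median -0.04). The gene that rose was Pxdn, the peroxidase that joins type IV collagen trimers through sulfilimine bonds, at 0.44 ± 0.082 (0.48 and 0.40 within pairs). Nid2, a nidogen that bridges laminin and type IV collagen, fell by 0.63 ± 0.081 (-0.60 and -0.67) and Npnt, an integrin ligand of kidney basement membranes, by 0.60 ± 0.081 (-0.47 and -0.74). The others that fell were Tinagl1, at -0.24 ± 0.074 (-0.27 and -0.20), and the laminin chain Lamb2, at -0.21 ± 0.067 (-0.16 and -0.25). In both the groups overlapped in normalised value. The laminin chains Lamb1 and Lamc1, which assemble beside the a1/a2 network, were at 0.12 ± 0.078 and -0.04 ± 0.074 without passing.

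Among receptors of type IV collagen 2 of 8 tested rose, 1 fell and 5 were not called (median 0.01). Itgb1, the beta subunit shared by the collagen-binding integrins, rose by 0.26 ± 0.080 (0.29 and 0.23 within pairs) and Itgb3 by 0.25 ± 0.066 (0.19 and 0.31). Itga1, whose integrin binds type IV collagen, fell by 0.26 ± 0.067 (-0.31 and -0.20). Ddr1, a receptor kinase for collagen, was at -0.12 ± 0.078 without passing. Among proteases of basement membrane and their inhibitors 3 of 11 tested rose, 1 fell and 7 were not called (median 0.08). Plat, tissue plasminogen activator, rose by 0.76 ± 0.082 (0.85 and 0.67) and Timp1, an inhibitor of metalloproteases, by 0.34 ± 0.080 (0.25 and 0.43), as did Ctsl. Reck, a membrane inhibitor of metalloproteases, fell by 0.45 ± 0.070 (-0.33 and -0.57). As a check of the treatment, 5 of 9 genes that TGF-beta is known to regulate rose and 3, all Id genes, fell. The largest were Pmepa1 at 1.29 ± 0.082, Ccn2 at 0.98 ± 0.066 and Id3 at -0.99 ± 0.078. Fn1 was at 0.80, Id2 at -0.71, Skil at 0.64, Smad7 at 0.50 and Id1 at -0.43. Tgfbi, at 0.05, was not called. The values of the Col4a3 and Col4a4 probe sets, at 0.16 to 0.58, were smaller in size than those of Pmepa1, Ccn2 and Id3. The largest of them exceeded those of Smad7 and Id1 in size.

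Leaving out 1 array, which unbalances the pairs, moved 20 of the 33 called genes of these lists and the marker lists by over 1.5 times. Colgalt1 was at 0.13 when TGF-beta1 replicate 2 was dropped and at 0.14 for low glucose replicate 2, and reached 0.45 when low glucose replicate 1 was dropped and 0.47 for TGF-beta1 replicate 1. Itgb1 in the same order was at 0.04, 0.07, 0.45 and 0.48. Itga1 was, again in that order, at 0.02, -0.03, -0.48 and -0.54. Npnt was at -0.23, -0.09, -1.11 and -0.97, and Reck at -0.23, -0.11, -0.79 and -0.68. Tinagl1 was at -0.06 without low glucose replicate 1 and at -0.42 without its replicate 2. Lamb2 was at -0.35 and -0.06 in these 2 fits. Pxdn was at 0.28 without TGF-beta1 replicate 2 and Itgb3 at 0.14 without TGF-beta1 replicate 1. Timp1 was at 0.12 without TGF-beta1 replicate 1, at 0.55 without its replicate 2 and at 0.21 with low glucose replicate 1 dropped. Nid2, Plod2 and Plat moved by less than that.

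**Figure D5:**
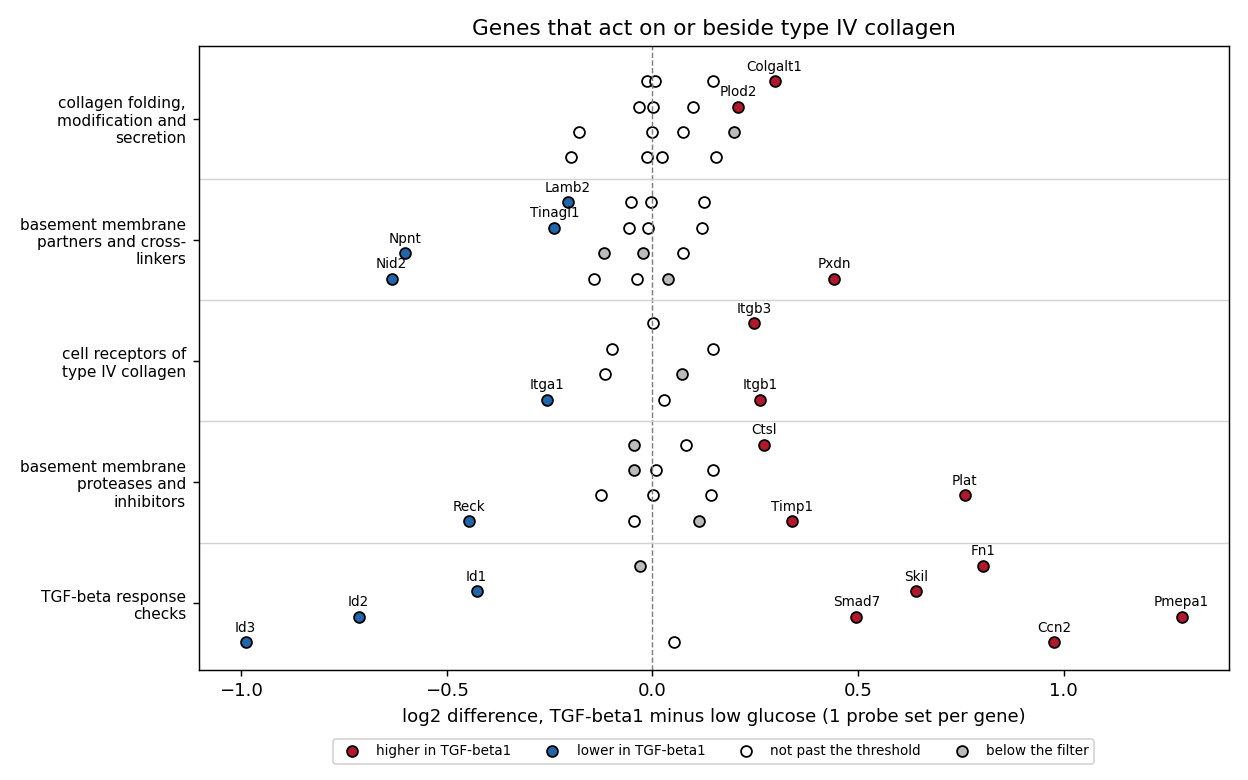
Log2 difference, TGF-beta1 minus low glucose (horizontal axis), of genes in 5 lists (rows) that handle, accompany, bind or cut type IV collagen or report TGF-beta signalling; each point is 1 gene, coloured by its call in limma with the block, and called genes are named. Most genes of the first 4 lists lie within 0.3 of 0. Beyond it are Timp1 at 0.34, Pxdn at 0.44 and Plat at 0.76 to the right. To the left are Nid2 at -0.63, Npnt at -0.60 and Reck at -0.45.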

How the data were processed

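Total RNA was read on 4 arrays, 2 per group by their titles. The authors deposited 1 linear intensity per probe set and array. The summary of probes and the scaling of arrays are, for the sources used here, not given. Between 2 arrays at most 1 value was identical, so each counted as a sample. From the platform annotation 34945 of 45037 probe sets without controls had 1 gene symbol, 932 several and 9160 none here.

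From the deposited intensities, log2(intensity + 46.88) was computed (46.88 is the 25th percentile of all values). Array medians differed by up to 0.227, and arrays were then quantile normalised. Tests ran across all probe sets whose mean reached the 40th percentile, in limma (lmFit, then eBayes with an intensity trend), with the array pair as a block. They were two-sided, with Benjamini-Hochberg adjustment at 0.05 (limma 3.58.1, R 4.3.3, and figures with matplotlib 3.10.9, Python 3.11.15). The code was run on simulated arrays. Their noise and pair differences were taken from the blocked fit, so they could not check the block or its prior. The pair joined each low glucose array to the TGF-beta1 array nearest in 18 spike-in probe sets. Replicate numbers only name arrays. Lists used the probe set of highest mean per gene. The rule for named genes took all member probe sets, the 3 called genes of largest change per list, up to 3 of the brightest markers per cell type and the 2 nearest genes per member; other genes were named after their values were seen. Members, lists and the block were chosen with earlier results of these data known. Alternatives were other pseudocounts, a floor, scalings, filters, 1 probe set per gene, no trend, no block, a finite prior and leaving out each array. Of the listed genes, Loxl2, Mmp15 and Serpine2, among others, had no single-symbol probe set here and were not analysed.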

Additional observations from a re-analysis of the deposited data

How the results depend on the processing

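With the block as estimated, other pseudocounts, a floor, other scalings, no filter and no intensity trend kept the direction of the member probe sets, and the count of type IV collagen probe sets called stayed at 6 or 7. The brightest probe set of each gene alone gave 3 called members of 6 and 2502 calls among all genes. Over all probe sets 4287 were called, 43.8% of them higher in TGF-beta1, against 34.6% of 4405 with arrays centred on their medians. The fit with no replicate block, that is without the array pairing, called 0 members and 0 probe sets in all with limma, as did the block with the finite prior. Across the fits that left out 1 array, made without the block, between 0 and 0 members and between 0 and 17 probe sets in all were called. Signs turned in these for 1424051_at of Col4a2 (range -0.29 to 0.14, with 0.12 when low glucose replicate 1 was left out and 0.14 for TGF-beta1 replicate 1), for 1425475_at of Col4a5 (range -0.50 to 0.0083, the latter without TGF-beta1 replicate 1) and for 1421006_at of Col4a6 (range -0.44 to 0.043, the latter without low glucose replicate 1). 3 arrays with the block leave no residual degrees of freedom, so that fit was not run. Each such fit assumes that the lone array of a group varies like the other group. Signal over background limits Col4a1 most, with 1 of 2 probe sets below the filter.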
